A study of Homo sapiens with 60 samples.

Results

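Aminoacyl-tRNA synthetases join each amino acid to its transfer RNA, the step that loads the ribosome with its building blocks. The genes described here are 35 synthetase genes, 19 whose enzymes work in the cytosol and 16 whose enzymes work in mitochondria. They were taken by their current symbols, which were matched to the Ensembl identifiers of the 60675 genes of the table. All 35 were found, and all 35 had enough reads to be tested. GARS1 and KARS1 each make a cytosolic and a mitochondrial enzyme from 1 gene and were counted as cytosolic.

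RNA was sequenced from HepG2, an established human liver carcinoma line, in 60 libraries that form 20 groups of 3, each after 24 h of treatment. Wortmannin, an inhibitor of phosphoinositide 3-kinase, was given at 10 µM. Water extracts were each given at 20, 100 and 500 µg/mL. The first pair is of Poria Cocos (called Poria here) and Atractylodis Rhizoma (Atractylodes), the next pair of Glycyrrhizae Radix (licorice) and Panax Ginseng (ginseng), and the last of Angelicae Gigantis Radix (angelica) and Paeoniae Radix (peony). The vehicle is DMSO, at 0.1% in the sample labels and at 2% in the series description, and the labels of the other groups name no DMSO. All sample titles carry the word BatchA. The sample descriptions give each library a code, and its first part differs between vehicle, wortmannin and each of these pairs. It is A1 for vehicle, 1 for wortmannin and 2, 3 and 4 for the pairs. What this part stands for is not stated, and it is called a set here. A difference from vehicle and a difference of set or DMSO therefore cannot be told apart. Comparisons of 500 with 20 µg/mL, and of the extracts of 1 pair, stay within 1 set. Whether the groups in them held equal DMSO is not stated. Nothing in the labels tells whether a group's 3 libraries stem from separate cultures, so p-values measure only the spread between libraries, which may be technical.

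Total counts ran from 20.9 M to 33.4 M per library, and the rarest member, PARS2, had at least 120 counts in each. Mitochondrially encoded RNA took 8.1% to 15.2% of counts, with the top value in 1 library of Poria at 100 µg/mL. Its share was 11.0% to 13.7% with wortmannin and 10.5% to 11.8% with vehicle, and its part in the results was not tested. Hepatocyte genes were abundant, ALB at 10274 to 16908 CPM, which are counts scaled to a common library total. Among markers of other cell types, PTPRC and KRT5 were at 0 in all 60 libraries. The summed level of the 5 blood cell markers was almost wholly LYZ and ran from 2031 to 2343 CPM with wortmannin and from 1284 to 1440 CPM with vehicle, and its part in the wortmannin results was not tested. It ran from 2024 to 2550 CPM with Poria at 500 µg/mL and from 1605 to 1797 CPM with Poria at 20 µg/mL, and from 1299 to 1521 CPM with Atractylodes at 500 µg/mL. The summed level of the 8 hepatocyte genes ran from 65185 to 68231 CPM with wortmannin and from 59073 to 60473 CPM with vehicle. In bulk libraries, fewer cells with a transcript and less transcript per cell cannot be told apart.

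In the cytosol, a number of synthetases sit in a multi-synthetase complex held together by the scaffold proteins AIMP1, AIMP2 and EEF1E1, and the others are free. Mitochondria import their own synthetases, which are encoded by separate nuclear genes and serve the few proteins of the mitochondrial genome. The transcription factor ATF4, made when amino acids run short or the endoplasmic reticulum is stressed, is known to raise many cytosolic synthetase genes together with ASNS, asparagine synthetase. It binds, with C/EBP partners, a composite element whose core reads TGATGNAA on 1 strand. The factor MYC, which binds the E-box CACGTG, is known to drive genes of protein synthesis.

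The composite element is shown first because the members that hold it and those that lack it are set side by side further on. RefSeq promoter windows (build GRCh38.p14, 250 bases before to 50 bases after a start site) were on hand for 30 members, as 39 windows. The letters TGATGNAA, read on both strands, stood in 8 of the 39 windows, and in 3.62% of all 35116 windows. They were found for 7 of 16 cytosolic members with a window and for 1 of 14 mitochondrial ones. The 30 bases around each match follow, 5′ to 3′ on the strand of the gene, with the match in capitals.
AARS1: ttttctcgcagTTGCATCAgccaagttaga
CARS1: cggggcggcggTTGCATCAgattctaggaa
GARS1: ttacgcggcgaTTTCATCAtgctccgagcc
IARS1: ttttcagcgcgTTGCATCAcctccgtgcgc
MARS1: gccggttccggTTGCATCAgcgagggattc
NARS1: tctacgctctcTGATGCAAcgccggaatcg
TARS1: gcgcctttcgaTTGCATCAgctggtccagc
YARS2: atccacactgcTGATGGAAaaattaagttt
The matches of AARS1 (chr16:70289675-70289704, minus strand) and of the mitochondrial YARS2 (chr12:32756076-32756105, minus strand) lay 187 and 197 bases before their start sites. That of GARS1 (chr7:30594834-30594863, plus strand) lay 33 bases before its start, and those of CARS1 (chr11:3057407-3057436, minus strand), MARS1 (chr12:57488053-57488082, plus strand) and IARS1 (chr9:92293692-92293721, minus strand) began 2, 4 and 13 bases before. All distances are to the first base of the match. The matches of CARS1 and MARS1 run across the start site into the transcript. The matches of TARS1 (chr5:33440956-33440985, plus strand) and NARS1 (chr18:57621804-57621833, minus strand) began 3 and 15 bases into the transcript. Where a gene's match reads TTGCATCA, its other strand reads TGATGCAA.

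The E-box CACGTG, which reads the same on both strands and does not overlap the composite element, was found for 4 of the 30 members with a window. Of all genes with a window, 8.77% held it. It stood in 5 of the 39 member windows and in 7.26% of all windows. It is shown because MYC RNA rose with Poria and licorice, as given below.
IARS1: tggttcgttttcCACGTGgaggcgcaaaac
CARS2: tgctgggatgcaCACGTGcttcgctaacag
EARS2: cagggagaagccCACGTGtgctattccatc
MARS2: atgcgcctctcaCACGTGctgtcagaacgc
These lie at chr9:92293866-92293895, chr13:110706501-110706530 and chr16:23557348-23557377 on the minus strand and at chr2:197705346-197705375 on the plus strand. A match is a string of letters in a window and says nothing of binding in these cells.

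Per kilobase of exon, the cytosolic genes were the more abundant class. Exon length was the union of all annotated exons of a gene, 10.0 kb for CARS1 and 7.85 kb for HARS1. It can exceed the length of the transcripts made in these cells, which would lower a gene's value. The order of single genes below holds for this measure only. Their median in vehicle was 31.8 CPM per kb, and that of the mitochondrial genes was 7.74 CPM per kb. KARS1 (56.2 ± 0.94 CPM per kb, SD, n = 3), which charges lysine, QARS1 (50.4 ± 1.17) and AARS1 (48.0 ± 0.69) headed the cytosolic genes in vehicle, and CARS1, the cysteine enzyme, stood lowest at 3.01 ± 0.19 CPM per kb. IARS2, the mitochondrial isoleucine enzyme, stood apart from the other mitochondrial genes at 38.5 ± 1.01 CPM per kb, and FARS2 was lowest at 2.42 ± 0.16. HARS1, which charges histidine, reached farther above its own median than any other member, with 9.65 CPM per kb as its median over 60 libraries and 14.9 CPM per kb as its highest value. The classes overlap. On this measure CARS1 in vehicle lay below 15 of the 16 mitochondrial genes, and IARS2 lay above 15 of the 19 cytosolic ones.

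**Figure D1:**
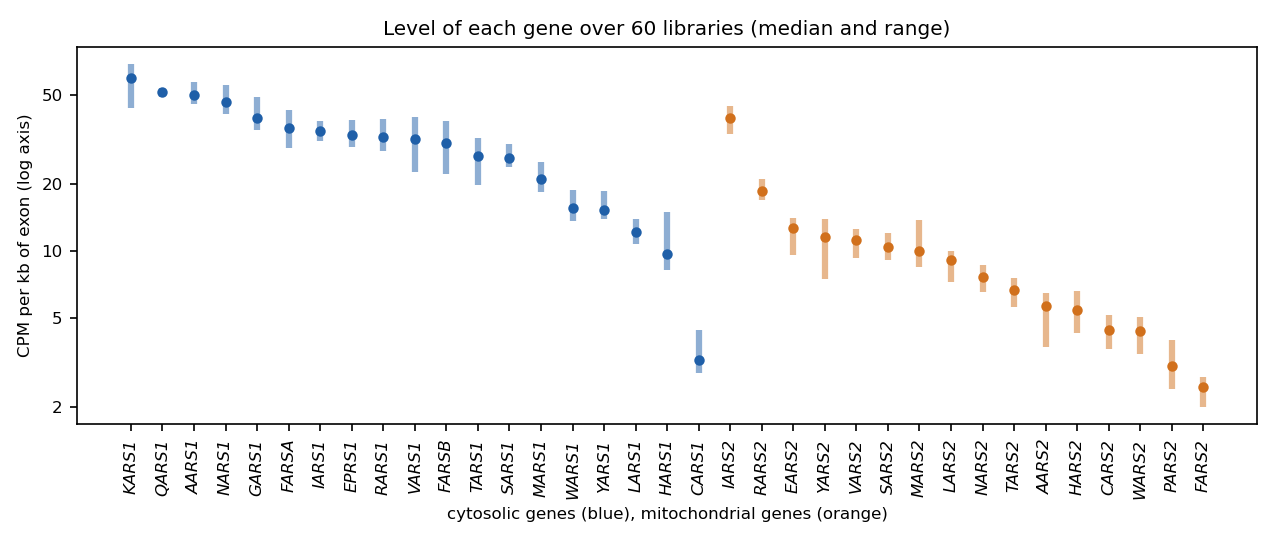
Level of each synthetase gene in CPM per kb of exon on a log axis. Points are medians and bars ranges over 60 libraries, with cytosolic genes in blue and mitochondrial genes in orange. In vehicle the cytosolic genes run from 3.01 to 56.2 CPM per kb and the mitochondrial ones from 2.42 to 38.5.

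As a share of all counts, cytosolic synthetase RNA was 0.315% to 0.322% with licorice at 500 µg/mL and 0.247% to 0.258% with wortmannin, against 0.268% to 0.274% with vehicle. Mitochondrial synthetase RNA was 0.0705% to 0.0762% with licorice at 500 µg/mL and 0.0614% to 0.0637% with wortmannin, against 0.0673% to 0.0700% with vehicle. With licorice every library lay above every vehicle library in both classes, and with wortmannin every library lay below. Licorice was not alone in this. At 500 µg/mL the libraries of Atractylodes, angelica and peony also lay above every vehicle library in both classes. With Atractylodes the shares were 0.281% to 0.291% and 0.0718% to 0.0730%. Poria at 500 µg/mL lay above vehicle in the cytosolic class and below it in the mitochondrial class. Ginseng lay above in the cytosolic class and overlapped vehicle in the mitochondrial class.

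**Figure D2:**
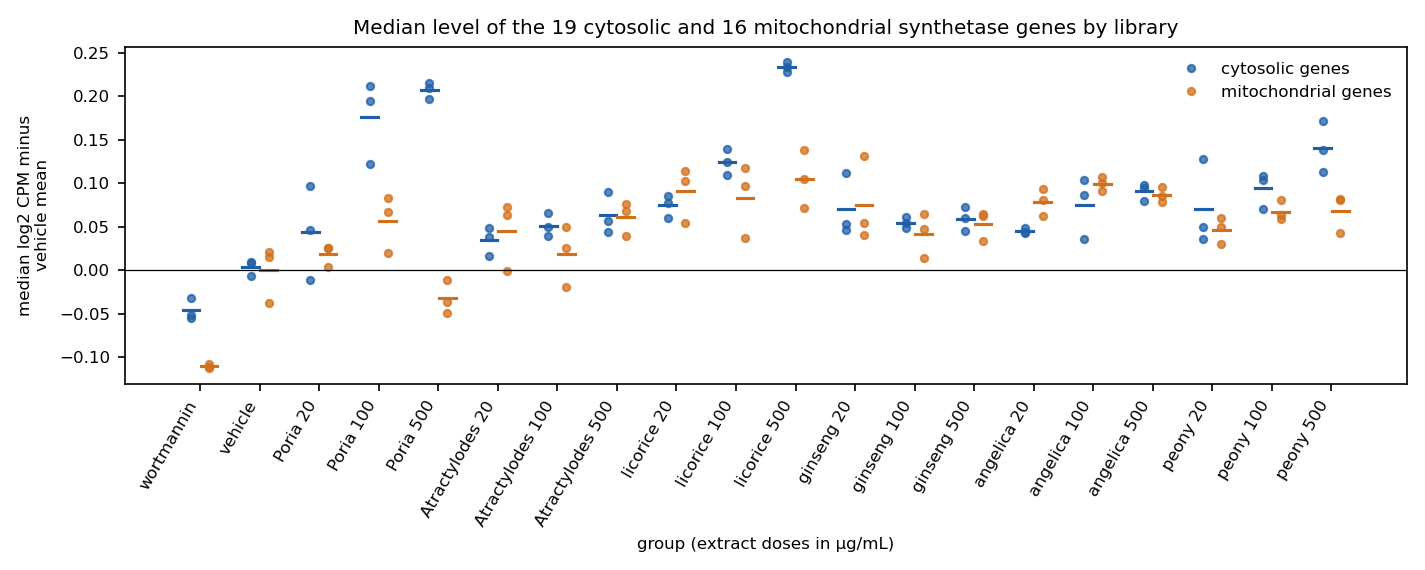
Median over the genes of each class of log2 CPM minus the mean of the vehicle libraries, by group. Each point is 1 library and each bar the mean of 3, with cytosolic genes in blue and mitochondrial genes in orange. Cytosolic medians are highest with licorice and Poria at 500 µg/mL, where the mitochondrial medians lie below them in every library.

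Genes were tested in edgeR with a quasi-likelihood test over 16093 genes, and a gene is said to rise or fall where its Benjamini-Hochberg adjusted p was under 0.05. Fold changes are log2, given with their standard error (SE), with 3 libraries in each group. The log2 change of the median gene over all 16093 was within 0.02 of 0 in each comparison. Annotated genes overlap 27 of the 35 members, and the submitters' notes do not say whether strand was used in counting, so reads from an overlap may be misassigned. HARS1 (chr5:140673904-140691862, minus strand) and HARS2 (chr5:140691426-140699318, plus strand), the cytosolic and mitochondrial histidine enzymes, stand head to head and overlap by 437 bases.

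**Figure D3:**
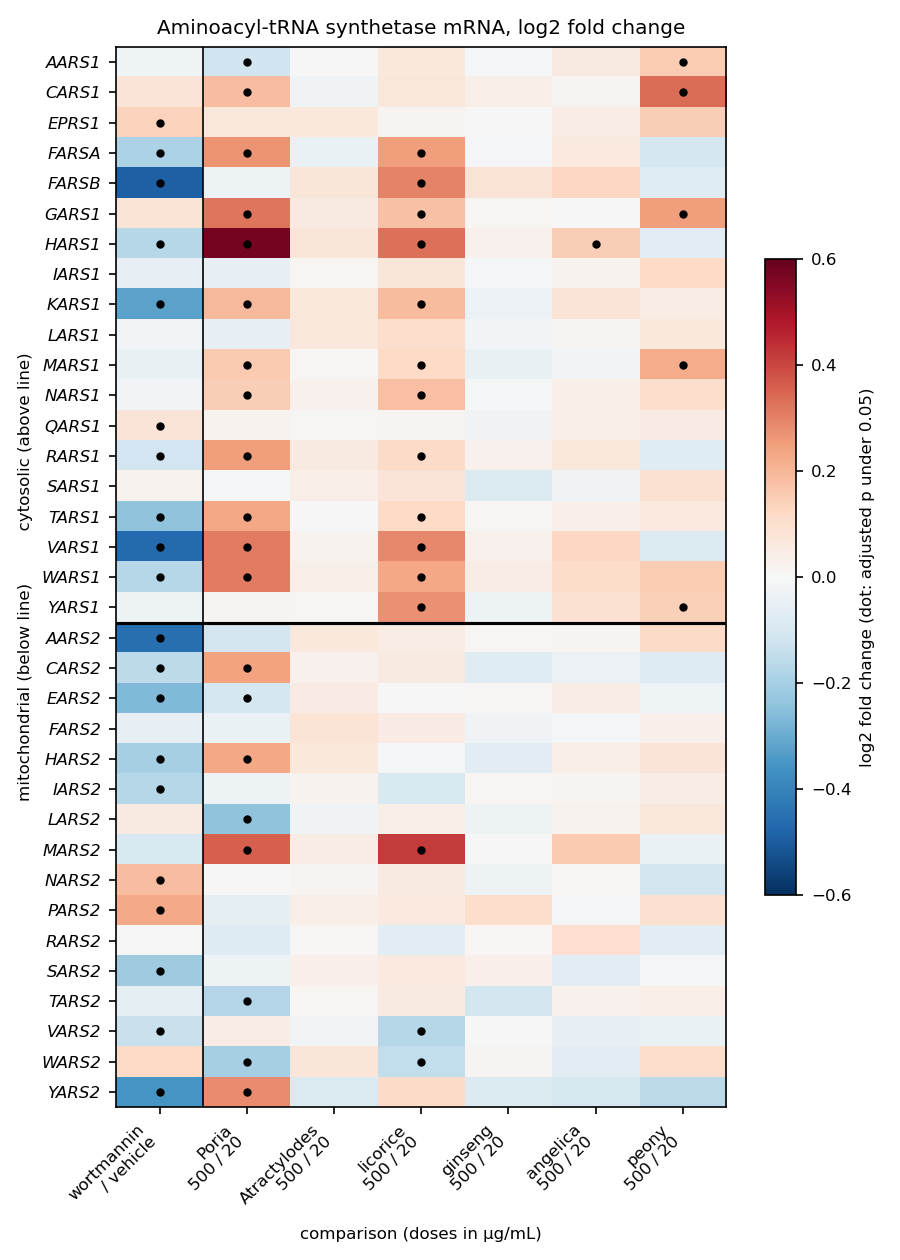
Log2 fold change of the 35 members with wortmannin over vehicle and with 500 over 20 µg/mL of each extract. Rows are genes, cytosolic above the line and mitochondrial below it, colours give the fold change and dots mark an edgeR adjusted p under 0.05. Poria has 20 dots, licorice 15 and peony 5, whereas Atractylodes and ginseng have 0.

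With wortmannin, more synthetase genes fell than rose in both compartments. Of 35 members 16 fell and 4 rose, with 8 falls and 2 rises in each class, whereas 24% of all genes tested fell and 22.4% rose. The median log2 change was -0.04 for cytosolic and -0.11 for mitochondrial genes.
The largest fall was in FARSB, the beta subunit of the phenylalanine enzyme, with 74.2, 75.5 and 79.4 CPM with wortmannin and 105, 108 and 109.6 CPM with vehicle. VARS1, the valine enzyme, had 138, 143 and 147 CPM with wortmannin and 193, 198 and 199.6 CPM with vehicle. AARS2, the mitochondrial alanine enzyme, had 15.98, 16.2 and 16.9 CPM with wortmannin and 22.2, 22.3 and 22.7 CPM with vehicle. In all 3 genes every wortmannin library lay below every vehicle library. The log2 changes were -0.49 ± 0.05 for FARSB (edgeR adjusted p = 1.11e-12), -0.47 ± 0.04 for VARS1 (1.03e-14) and -0.45 ± 0.06 for AARS2 (3.04e-08). YARS2 (-0.35 ± 0.07), KARS1 (-0.32 ± 0.04) and EARS2 (-0.27 ± 0.04), the mitochondrial glutamate enzyme, followed.
The rises were smaller. PARS2, the mitochondrial proline enzyme, had 7.95, 8.51 and 9.41 CPM with wortmannin and 6.94, 7.46 and 7.69 CPM with vehicle, a log2 change of 0.23 ± 0.09 (edgeR adjusted p = 0.0245), and its libraries did not overlap. NARS2 (0.19 ± 0.07), EPRS1 (0.14 ± 0.05), the fused glutamate and proline enzyme, and QARS1 (0.08 ± 0.03) also rose. The 2 subunits of the phenylalanine enzyme fell by different amounts, FARSA by 0.19 and FARSB by 0.49 on the log2 scale, and the difference was not tested. WARS1 (-0.17 ± 0.05) and IARS2 (-0.17 ± 0.04) fell, and SARS2 fell by 0.21. AARS1 (-0.02), MARS1 (-0.04), LARS1 (-0.02) and SARS1 (0.02) did not pass.
By placement, the 7 synthetases of the complex (EPRS1, IARS1, KARS1, LARS1, MARS1, QARS1 and RARS1) gave 2 rises and 2 falls, and the 12 free ones 0 rises and 6 falls. The 3 scaffold genes all fell, EEF1E1 by 0.52, AIMP2 by 0.29 and AIMP1 by 0.22 on the log2 scale. Of 7 genes that help charge or modify mitochondrial transfer RNA, 5 fell and 0 rose, with TRMU (-0.60), a thiolating enzyme, GTPBP3 (-0.45) and GATC (-0.28) in front. ATF4 RNA rose by 0.15 ± 0.04 (edgeR adjusted p = 0.0043) and ASNS by 0.59 ± 0.05, TRIB3 rose by 0.27 and MYC changed by 0.01 (0.926), and of the 22 tested ATF4 targets outside the synthetases 13 rose and 4 fell. Of the 7 cytosolic synthetases with the composite element, 0 rose and TARS1 fell by 0.24.

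With Poria, cytosolic synthetase genes rose more often than they fell, and mitochondrial genes rose and fell at about the rate of all genes tested. At 500 over 20 µg/mL, 15 members rose and 5 fell, whereas 22.3% of all genes tested rose and 21.2% fell. Cytosolic genes gave 11 rises and 1 fall with a median log2 change of 0.16, and mitochondrial genes 4 rises and 4 falls with a median of -0.03. The LYZ-led marker sum given above was higher at 500 than at 20 µg/mL in every library, and its part in the results was not tested.
HARS1 moved most. It had 75.3, 75.7 and 79.3 CPM at 20 µg/mL, 90.5, 90.8 and 93.8 CPM at 100 µg/mL and 110.0, 116 and 117 CPM at 500 µg/mL, so that the 3 doses did not overlap. The log2 change at 500 over 20 µg/mL was 0.57 ± 0.04 (edgeR adjusted p = 7.13e-18). HARS2, its mitochondrial neighbour, had 22.1, 22.6 and 24.8 CPM at 500 µg/mL and 19.2, 19.4 and 20.5 CPM at 20 µg/mL, a change of 0.23 ± 0.07.
MARS2 (chr2:197705369-197708387, plus strand), the mitochondrial methionine enzyme, had 36.2, 40.3 and 41.7 CPM at 500 µg/mL and 29.8, 30.04 and 32.3 CPM at 20 µg/mL. GARS1 (chr7:30594681-30634033, plus strand), the glycine enzyme of both compartments, had 187, 191 and 192 CPM at 500 µg/mL and 146, 155 and 156 CPM at 20 µg/mL. VARS1 (chr6:31777518-31795953, minus strand) had 229, 232 and 240.4 CPM at 500 µg/mL and 173, 191 and 201 CPM at 20 µg/mL. The doses did not overlap in any of the 3. The log2 changes were 0.36 ± 0.05 for MARS2, 0.32 ± 0.04 for GARS1 and 0.31 ± 0.04 for VARS1, with edgeR adjusted p of 9.28e-08, 2.54e-09 and 2.54e-09. WARS1, the tryptophan enzyme, rose by 0.31 ± 0.05 and YARS2, the mitochondrial tyrosine enzyme, by 0.29 ± 0.07. KARS1 (0.20 ± 0.04) and MARS1 (0.16 ± 0.04) rose as well.
Of the 5 falls 4 were mitochondrial, which is 4 of 16 genes and near the 21.2% of all genes tested that fell. LARS2, the mitochondrial leucine enzyme, had 49.6, 49.7 and 50.2 CPM at 500 µg/mL and 57.7, 59.1 and 60.2 CPM at 20 µg/mL, a log2 change of -0.24 ± 0.04 (edgeR adjusted p = 2.41e-06) with no overlap. WARS2 (-0.20 ± 0.06), TARS2 (-0.18 ± 0.06) and EARS2 (-0.10 ± 0.04) fell too.
AARS1 was the cytosolic gene that fell. It had 229, 236 and 243 CPM at 20 µg/mL, 235, 240.4 and 243 CPM at 100 µg/mL and 216, 217 and 219 CPM at 500 µg/mL, so the low value was at the top dose alone. Its change at 500 over 20 µg/mL was -0.12 ± 0.03 (edgeR adjusted p = 0.00267). In vehicle it had 212, 217 and 218 CPM, close to the top dose.
The subunits of the phenylalanine enzyme gave different calls with Poria. FARSA rose by 0.27 ± 0.05 at 500 over 20 µg/mL, and FARSB changed by -0.03 ± 0.05 (edgeR adjusted p = 0.639); the difference between the subunits was not tested. LARS1 (-0.05), SARS1 (-0.01), SARS2 (-0.03) and IARS2 (-0.03) did not pass.
MYC RNA rose by 0.45 ± 0.05 and ATF4 RNA fell by 0.16 (edgeR adjusted p = 0.0025). ASNS rose by 0.23 and TRIB3, an ATF4 target that restrains AKT, by 0.51. Of 22 tested ATF4 targets 9 rose and 4 fell, and their log2 changes ran widely, from -1.17 to 1.56. PPP1R15A, which restores translation by way of eIF2 dephosphorylation, rose by 1.18.

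With licorice the cytosolic calls were all rises. At 500 over 20 µg/mL, 12 of 19 cytosolic genes rose and 0 fell, and of 16 mitochondrial genes 1 rose and 2 fell. Of all genes tested 11% rose and 10.3% fell. The median log2 change was 0.12 for cytosolic and 0.05 for mitochondrial genes, and all 19 cytosolic values were above 0.
The summed level of the 8 hepatocyte markers ran from 47979 to 50346 CPM with licorice at 500 µg/mL and from 61106 to 64023 CPM at 20 µg/mL, with no overlap, and its part in the results was not tested.
MARS2 had 36.4, 36.9 and 37.4 CPM at 500 µg/mL and 27.3, 27.7 and 27.9 CPM at 20 µg/mL, a log2 change of 0.42 ± 0.05 (edgeR adjusted p = 1.13e-08). In vehicle MARS2 had 29.5, 33.4 and 34.2 CPM, so the 20 µg/mL libraries lay below vehicle and the 500 µg/mL libraries above it. HARS1 had 70.4, 75.4 and 76.8 CPM at 20 µg/mL, 78.3, 82.6 and 83.2 CPM at 100 µg/mL and 89.9, 94.3 and 96.0 CPM at 500 µg/mL. Its doses did not overlap, and its change at 500 over 20 µg/mL was 0.33 ± 0.04 (edgeR adjusted p = 1.51e-09).
FARSB (chr2:222570536-222656337, minus strand) had 126, 127 and 128 CPM at 500 µg/mL and 102, 103 and 104 CPM at 20 µg/mL, a log2 change of 0.30 ± 0.05. Here both subunits of the phenylalanine enzyme rose, FARSA by 0.25 ± 0.05. YARS1, the tyrosine enzyme, had 147, 149 and 153 CPM at 500 µg/mL and 121, 124 and 126 CPM at 20 µg/mL, a change of 0.28 ± 0.03 (edgeR adjusted p = 9.19e-11), and VARS1 rose by 0.29 ± 0.04. None of these 3 genes overlapped between doses.
WARS1 (0.23 ± 0.05), KARS1 (0.19 ± 0.04) and MARS1 (0.12 ± 0.04) rose. VARS2 (-0.17 ± 0.05) and WARS2 (-0.15 ± 0.06), both mitochondrial, fell. AARS1 (0.06), LARS1 (0.11), SARS1 (0.08), SARS2 (0.06) and IARS2 (-0.09) did not pass.
MYC RNA had 191, 193 and 197 CPM at 500 µg/mL and 128, 131 and 134 CPM at 20 µg/mL, a rise of 0.57 ± 0.05. ATF4 RNA changed by 0.04 (edgeR adjusted p = 0.6), TRIB3 by 0.02 (0.87), and ASNS rose by 0.40. Of 7 genes that help charge or modify mitochondrial transfer RNA, 3 rose and 0 fell, MTFMT, which formylates the initiator, by 0.35, GTPBP3 by 0.24 and QRSL1 by 0.21. Of the scaffold genes AIMP2 rose by 0.32 and EEF1E1 by 0.21. The scaffold count is 1 without replicate 1 or replicate 2 of 20 µg/mL or without replicate 3 of 500 µg/mL.
Of 15 members that rose with Poria and 13 that rose with licorice, 11 were shared, which is 73.3% of the Poria list and 84.6% of the licorice list. Over all genes tested the shared rises were 27.2% of those with Poria and 55.1% of those with licorice. CARS1, CARS2, HARS2 and YARS2 were called with Poria and not with licorice, and FARSB and YARS1 with licorice and not with Poria. The difference between these 2 extracts was not tested apart from the joint test of all 6.

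**Figure D4:**
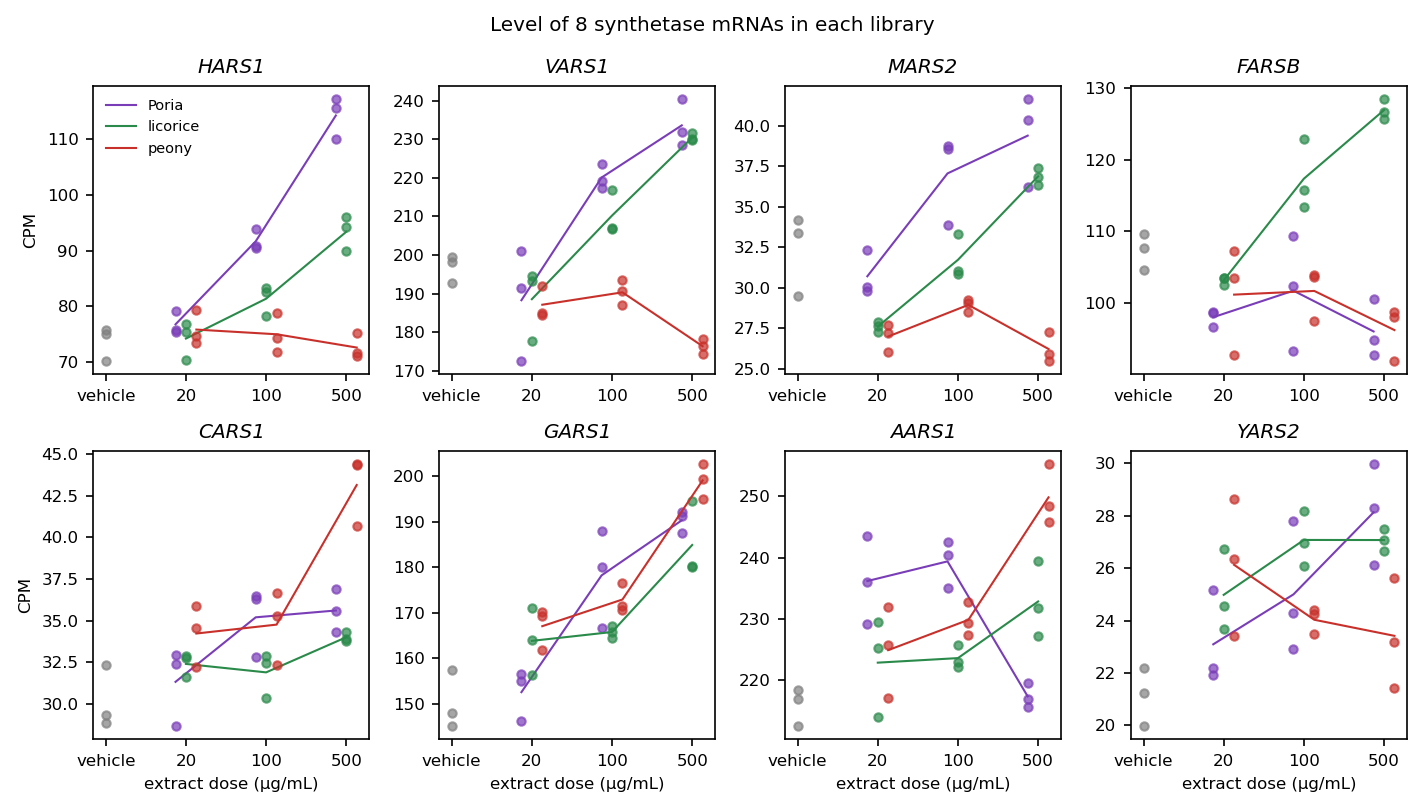
CPM of 8 synthetase genes in each library with vehicle and with 20, 100 and 500 µg/mL of Poria, licorice and peony. Points are libraries and lines join the means of 3. HARS1 climbs to 110.0 to 117 CPM with Poria and 89.9 to 96.0 CPM with licorice at 500 µg/mL and stays at 71.1 to 75.1 CPM with peony, whereas CARS1 is highest with peony at 40.7 to 44.4 CPM.

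With peony fewer cytosolic genes were called, with CARS1, GARS1 and MARS1 at their head. At 500 over 20 µg/mL, 5 members rose and 0 fell, all 5 cytosolic, whereas 1.78% of all genes tested rose and 1.7% fell. An unadjusted p under 0.05 was reached by 12 cytosolic genes with peony, 12 with Poria and 13 with licorice. Of all 16093 genes 2418, 7973 and 5088 reached it. The adjusted threshold is stricter where fewer genes change, so counts of calls do not compare the breadth of the responses.
CARS1 (chr11:3000922-3057613, minus strand) had 32.2, 34.6 and 35.9 CPM at 20 µg/mL, 32.4, 35.3 and 36.6 CPM at 100 µg/mL and 40.7, 44.4 and 44.4 CPM at 500 µg/mL. The low and middle doses overlapped and the top dose stood apart. The log2 change at 500 over 20 µg/mL was 0.33 ± 0.06 (edgeR adjusted p = 5.81e-05). GARS1 had 195, 199 and 203 CPM at 500 µg/mL and 162, 169 and 170.2 CPM at 20 µg/mL, a change of 0.25 ± 0.04 (edgeR adjusted p = 1.5e-05). MARS1, the cytosolic methionine enzyme, had 169.7, 174 and 176 CPM at 500 µg/mL and 140.1, 147 and 159 CPM at 20 µg/mL, a change of 0.22 ± 0.04 (edgeR adjusted p = 0.000103). In neither gene did the doses overlap.
AARS1, which fell with Poria, had 246, 248 and 255 CPM at 500 µg/mL and 217, 226 and 232 CPM at 20 µg/mL of peony, a rise of 0.15 ± 0.03 (edgeR adjusted p = 0.00286). YARS1 rose by 0.14 ± 0.03. With no filter on low counts, and with a regression on log dose, AARS1 and YARS1 no longer passed and the count was 3; DESeq2 called 8. WARS1 changed by 0.15 ± 0.05 (edgeR adjusted p = 0.0546), and it passed with the replicate number as a block (adjusted p = 0.0461).
Several of the genes that led with Poria or licorice did not pass with peony. HARS1 changed by -0.06 ± 0.04, VARS1 by -0.09 ± 0.04, MARS2 by -0.04 ± 0.05 and FARSA by -0.10 ± 0.05. KARS1 (0.05), LARS1 (0.07), SARS1 (0.09), SARS2 (-0.01) and IARS2 (0.04) did not pass either. Peony shared 3 of its 5 rises with Poria (CARS1, GARS1 and MARS1) and 3 with licorice (GARS1, MARS1 and YARS1), 60% in both cases, which is 20% of the Poria list and 23.1% of the licorice list. Over all genes tested, 43.6% of the rises with peony were shared with Poria and 33.1% with licorice. These shared rises were 3.49% of all rises with Poria and 5.37% of all rises with licorice.
ATF4 RNA had 608, 609 and 617 CPM at 500 µg/mL and 497, 497 and 518 CPM at 20 µg/mL, a rise of 0.28 ± 0.04 (edgeR adjusted p = 1.4e-05). ASNS had 90.3, 92.4 and 94.6 CPM at 500 µg/mL and 50.4, 54.3 and 58.1 CPM at 20 µg/mL, a rise of 0.77 ± 0.04. Of 22 tested ATF4 targets outside the synthetases 13 rose and 0 fell, among them SLC7A11 (0.91), the cystine carrier, DDIT4 (0.70) and NUPR1 (0.67). MYC changed by -0.02 (edgeR adjusted p = 0.89) and TRIB3 by 0.17 (0.06). The scaffold genes and the helpers of mitochondrial charging gave 0 calls in edgeR.

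The other 3 extracts gave few or no calls among the members between 500 and 20 µg/mL. With angelica HARS1 alone was called, where 0.534% of all genes rose and 0.684% fell. It had 82.0, 82.4 and 85.7 CPM at 500 µg/mL and 74.3, 75.7 and 76.1 CPM at 20 µg/mL, a change of 0.15 ± 0.04 (edgeR adjusted p = 0.0377). That call is lost without any 1 of 5 of the 6 libraries, all but angelica 20 replicate 1, and the count is then 0. With all libraries kept, 8 members reached an unadjusted p under 0.05 with angelica, as did 1690 of the 16093 genes tested.
With Atractylodes 0 members passed in edgeR, 0 reached an unadjusted p under 0.05, and DESeq2 called 0, where 0.0124% of all genes rose and 0.0373% fell. With ginseng the 3 numbers were also 0, where 0.0249% of all genes rose and 0.124% fell. The 35 log2 changes ran from -0.09 (YARS2) to 0.08 (FARS2) with Atractylodes, and from -0.11 (TARS2) to 0.11 (PARS2) with ginseng. The members that were named in every comparison lay in these narrow ranges as well. For Atractylodes, AARS1 changed by 0.00, MARS1 by 0.01, IARS2 by 0.02, WARS1 and SARS2 by 0.03, SARS1 by 0.04, KARS1 by 0.06 and LARS1 by 0.07. For ginseng, SARS1 changed by -0.09, MARS1 and KARS1 by -0.04, LARS1 by -0.02, AARS1 and IARS2 by 0.01 or less in size, SARS2 by 0.03 and WARS1 by 0.04. For angelica, SARS2 changed by -0.06, SARS1 by -0.02, MARS1 and LARS1 by about 0.01 in size, IARS2 by 0.02, AARS1 by 0.06, KARS1 by 0.08 and WARS1 by 0.11. MYC, ASNS and TRIB3 passed with none of the 3 extracts, and ATF4 fell by 0.18 with angelica (edgeR adjusted p = 0.018).

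The change at 500 over 20 µg/mL differed between extracts for 14 of the 19 cytosolic genes. A joint edgeR test of whether the 6 changes are equal passed for 20 of 35 members, 14 of 19 cytosolic and 6 of 16 mitochondrial, whereas 35.1% of all genes tested passed. HARS1 led (adjusted p = 1.3e-13), then VARS1 (2.56e-08), YARS1 (9.35e-08), MARS2 (4.78e-07) and GARS1 (3.28e-06). AARS1 (0.000212), which fell with Poria and rose with peony, passed as well.

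Extracts of 1 pair can be compared at 500 µg/mL without the vehicle. Poria over Atractylodes gave 15 rises and 6 falls, where 21.8% of all genes rose and 21.1% fell. Cytosolic genes gave 11 rises and 0 falls with a median of 0.15, and mitochondrial genes 4 rises and 6 falls with a median of -0.08. The rises were led by HARS1 (0.58), with 110.0, 116 and 117 CPM with Poria and 75.8, 76.0 and 77.1 CPM with Atractylodes, then MARS2 (0.35), YARS2 (0.30) and WARS1 (0.27). The falls were led by LARS2 (-0.33), WARS2 (-0.25), FARS2 (-0.23) and AARS2 (-0.20), all mitochondrial. KARS1 (0.15) and MARS1 (0.13) rose, and AARS1 (-0.04), LARS1 (-0.04), SARS1 (-0.02), SARS2 (-0.12) and IARS2 (-0.10) did not pass.
Licorice over ginseng gave 14 rises and 2 falls, where 11.7% of all genes rose and 10.7% fell. Of 19 cytosolic genes 13 rose and 0 fell. MARS2 (0.36), VARS1 (0.29), YARS1 (0.28) and HARS1 (0.28) led the rises, and VARS2 (-0.15) and RARS2 (-0.13), both mitochondrial, fell. KARS1 (0.20), LARS1 (0.19), WARS1 (0.18) and MARS1 (0.16) rose, and AARS1 (0.09), SARS1 (0.11), SARS2 (-0.06) and IARS2 (-0.01) did not pass. With the replicate number as a block AARS1 passed too (adjusted p = 0.0484).
Angelica over peony gave 7 rises and 6 falls, where 3.59% of all genes rose and 2.58% fell. CARS1 (-0.38), GARS1 (-0.30), MARS1 (-0.24), SARS1 (-0.18), AARS1 (-0.17) and YARS1 (-0.14), all cytosolic, were lower with angelica. HARS1 (0.20), MARS2 (0.20), FARSB (0.18) and RARS2 (0.18) led the rises, of which 4 were cytosolic and 3 mitochondrial. LARS1 (-0.10), WARS1 (-0.09), IARS2 (0.00), SARS2 (0.01) and KARS1 (0.06) did not pass. CARS1 had 32.2, 32.6 and 34.8 CPM with angelica and 40.7, 44.4 and 44.4 CPM with peony, with no overlap. ATF4 was lower by 0.43 in log2, and of 22 ATF4 targets 0 rose and 19 fell, ASNS by 1.03.

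Set against vehicle, which all 6 extracts share, the top doses gave more calls than 500 over 20 µg/mL did, except with Atractylodes. Licorice raised 24 members and lowered 0, 17 cytosolic and 7 mitochondrial, where 16.7% of all genes rose and 15.7% fell. YARS2 (0.36), HARS1 (0.34), NARS1 (0.34) and YARS1 (0.32) led. YARS2 had 26.7, 27.1 and 27.5 CPM with licorice and 20.0, 21.3 and 22.2 CPM with vehicle. The 3 scaffold genes rose, AIMP2 by 0.38, EEF1E1 by 0.27 and AIMP1 by 0.26.
Poria raised 18 and lowered 4 members, where 23.9% of all genes rose and 23.7% fell. HARS1 (0.63), YARS2 (0.41), TARS1 (0.35) and GARS1 (0.34) led the rises, and LARS2 (-0.28), SARS2 (-0.18), FARSB (-0.16) and TARS2 (-0.14) fell.
Peony raised 12 and lowered 3 members, where 9.68% of all genes rose and 9.98% fell. CARS1 (0.52), GARS1 (0.41), MARS1 (0.37) and SARS1 (0.27), the serine enzyme, led the rises, and MARS2 (-0.30), VARS1 (-0.16) and FARSB (-0.16) fell. CARS1 had 40.7, 44.4 and 44.4 CPM with peony and 28.8, 29.3 and 32.3 CPM with vehicle. Of 22 ATF4 targets 19 rose and 0 fell.
Angelica raised 13 and lowered 0 members, where 9.51% of all genes rose and 9.41% fell, led by YARS2 (0.32), NARS2 (0.25), FARSA (0.21) and EARS2 (0.18). The count was 7 without vehicle replicate 3 and 8 without angelica 500 replicate 3. Ginseng raised 5 and lowered 1, where 4.66% of all genes rose and 5.58% fell, with YARS2 (0.25), TARS1 (0.14), EARS2 (0.13) and GARS1 (0.12) rising and MARS2 (-0.17) falling. That count was 1 without vehicle replicate 3 or ginseng 500 replicate 3 and 3 without ginseng 500 replicate 1. Atractylodes gave 0 calls in edgeR, 10 members at an unadjusted p under 0.05 and 1 call in DESeq2, where 0.559% of all genes rose and 0.329% fell, and it gave 1 call in edgeR without Atractylodes 500 replicate 1.
Over the 6 extracts at 500 µg/mL, the log2 change against vehicle ran from 0.09 to 0.37 for MARS1 and from 0.07 to 0.26 for KARS1, with 4 rises each. It ran from 0.00 to 0.27 for WARS1, with 3 rises, from 0.01 to 0.21 for AARS1, from 0.05 to 0.27 for SARS1 and from 0.02 to 0.25 for LARS1, with 2 rises each. IARS2 ran from -0.02 to 0.08 with 0 calls, and SARS2 from -0.18 to -0.03 with 1 fall, that with Poria.
At 20 µg/mL the calls against vehicle came from both classes. Licorice raised 5 cytosolic and 6 mitochondrial genes and ginseng 4 and 3, whereas angelica raised 4 and 5 and peony 6 and 4. In all, licorice raised 11 and lowered 1 member, where 5.89% of all genes rose and 5.28% fell. Ginseng raised 7 and lowered 1, where 6.72% rose and 7.15% fell. Angelica raised 9 and lowered 2, where 12.1% rose and 12.2% fell, and peony raised 10 and lowered 1, where 7.57% rose and 8.19% fell. Poria raised 2 (LARS1, 0.16, and AARS1, 0.13) and lowered 0, where 2.09% rose and 1.71% fell. Atractylodes gave 0 calls in edgeR and in DESeq2 and 10 members at an unadjusted p under 0.05, where 0.82% rose and 0.261% fell.
YARS2 differed from vehicle by 0.41 with angelica, 0.33 with ginseng, 0.31 with peony and 0.24 with licorice, all called. NARS2, the mitochondrial asparagine enzyme, differed by 0.24, 0.22, 0.25 and 0.24 in the same order, and MARS2 by -0.27, -0.18, -0.26 and -0.23, all called. MARS1 rose with the same 4 extracts by 0.14, 0.14, 0.15 and 0.15. With licorice HARS2 (0.23), WARS2 (0.18), LARS1 (0.15) and IARS2 (0.12) rose too, with angelica CARS2 (0.18) and VARS2 (0.15) rose and VARS1 fell by 0.11, with peony CARS1 (0.18) and SARS1 (0.18) rose, and with ginseng SARS1 (0.14) rose. MARS2 had 26.7, 26.8 and 27.2 CPM with angelica at 20 µg/mL and 29.5, 33.4 and 34.2 CPM with vehicle. Of the members named throughout, KARS1 ran from 0.01 to 0.10, WARS1 from -0.06 to -0.02 and SARS2 from -0.16 to 0.04 over the 6 extracts at 20 µg/mL, with 0 calls, and AARS1 from -0.01 to 0.13. These comparisons use the same 3 vehicle libraries. Without vehicle replicate 3 the counts were 4 for licorice, 2 for ginseng, 6 for angelica and 5 for peony. They were 5 for ginseng without vehicle replicate 2 or ginseng 20 replicate 2, 1 without ginseng 20 replicate 1, 4 for licorice without licorice 20 replicate 2, 4 for angelica without angelica 20 replicate 3, and for peony 7 without vehicle replicate 1 and 4 without peony 20 replicate 2. For Poria the count was 0 without vehicle replicate 1, Poria 20 replicate 2 or Poria 20 replicate 3, and 1 without vehicle replicate 2.

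The cytosolic genes were then set side by side by whether the promoter window holds the composite element shown above. With peony at 500 over 20 µg/mL, 4 of the 7 with it rose (AARS1, CARS1, GARS1 and MARS1) and 0 of the 9 without it, with median log2 changes of 0.15 and 0.05, where 1.78% of all genes rose. With peony at 500 µg/mL over vehicle, 7 of the 7 with it rose, with values from 0.15 to 0.52, where 9.68% of all genes rose and 9.98% fell, and of the 9 without it 3 rose and 1 fell, with values from -0.16 to 0.27. With licorice at 500 over 20 µg/mL, 4 of 7 with it and 6 of 9 without it rose, with medians of 0.12 and 0.19, where 11% of all genes rose. With Poria 5 of 7 with it rose, 1 fell, and 5 of 9 without it rose, with medians of 0.16 and 0.20, where 22.3% of all genes rose and 21.2% fell. With angelica over peony at 500 µg/mL, 0 of 7 with it rose and 4 fell, and of 9 without it 3 rose and 1 fell, where 3.59% of all genes rose and 2.58% fell. The mitochondrial YARS2, which holds the letters, changed by -0.16 ± 0.07 with peony at 500 over 20 µg/mL (edgeR adjusted p = 0.209). The 3 cytosolic genes with no window at hand are LARS1, VARS1 and YARS1. YARS1 also rose with peony at 500 over 20 µg/mL, so the split does not cover all rises with peony. With no filter on low counts or a regression on log dose, neither AARS1 nor YARS1 passed there. WARS1, whose window lacks the element, changed by 0.15 in the same comparison and did not pass. It passed in edgeR with the replicate number as a block (adjusted p = 0.0461), so the 0 of 9 without the element depends on that choice. Of the 4 members with an E-box, MARS2 rose with Poria and licorice and CARS2 with Poria, EARS2 fell by 0.10 with Poria, and IARS1 was called with neither at 500 over 20 µg/mL. Among the windows shown, no shared letters other than these were searched for.

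**Figure D5:**
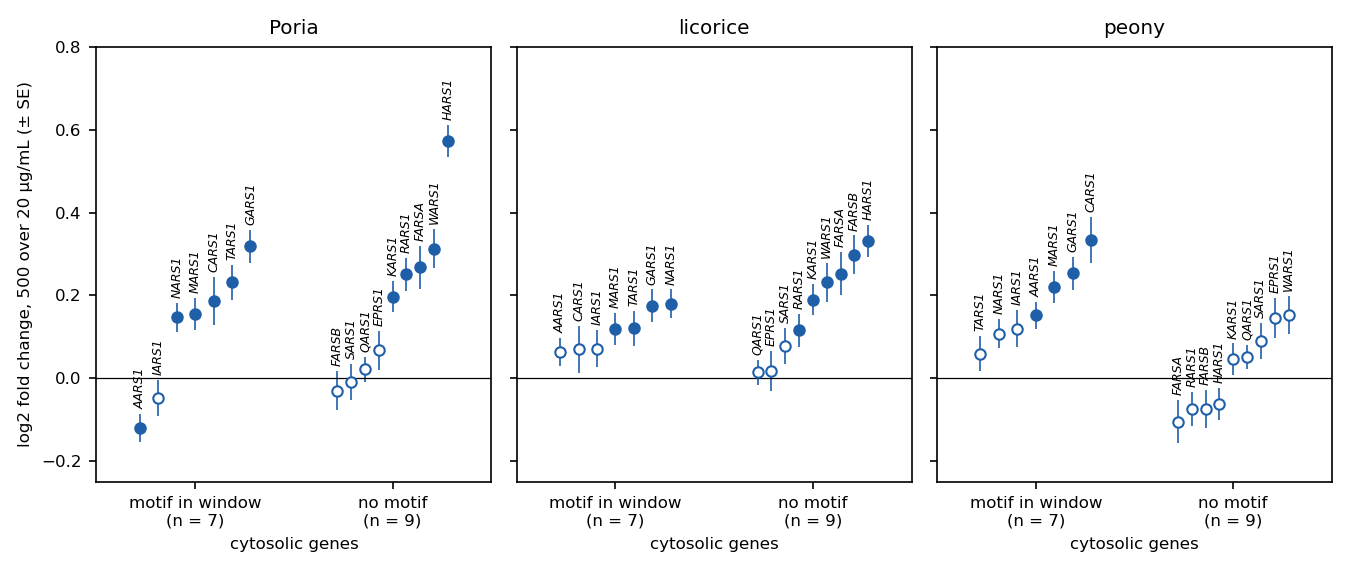
Log2 fold change at 500 over 20 µg/mL of the cytosolic genes with a promoter window, for Poria, licorice and peony, split by whether the window holds TGATGNAA on either strand. Points are genes, bars are SE, and filled points have an edgeR adjusted p under 0.05. With peony the 4 filled points all hold the letters, whereas with Poria and licorice filled points stand on both sides. YARS1, which also rose with peony, has no window and is not shown. WARS1, which lacks the letters, is an open point at 0.15 with peony and passed only with the replicate number as a block.

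The remaining lists hold genes that work beside the synthetases. Of 10 mitochondrial translation factors, 4 fell and 1 rose with wortmannin, where 24% of all genes fell and 22.4% rose, led by MTRFR (-0.28) and TUFM (-0.22), the mitochondrial elongation factor. At 500 over 20 µg/mL, 2 rose with Poria, MTRF1L (0.29) and GFM1 (0.21), and 4 with licorice, MRRF (0.21), TUFM (0.19), GFM1 (0.16) and GFM2 (0.16), a count that is 2 without licorice 500 replicate 3. Of all genes 22.3% rose with Poria and 11% with licorice. Among 6 cytosolic elongation factors, 2 fell and 1 rose with wortmannin, 2 rose with Poria, 1 rose with licorice and 1 fell with peony, where 1.7% of all genes fell. EIF5A fell by 0.43 with wortmannin and rose by 0.31 with Poria and 0.21 with licorice, and EEF1A1 rose by 0.13 with Poria and fell by 0.28 with peony. Among 7 proofreading and synthetase-like genes, 2 rose and 1 fell with wortmannin, and 1 rose with Poria and with licorice. PTRH2, a peptidyl-tRNA hydrolase, rose by 0.36 with Poria and 0.31 with licorice, and SEPSECS, which makes selenocysteine on its transfer RNA, rose by 0.55 with wortmannin.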

How the data were processed

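Gene-level expected counts made with RSEM were deposited by the authors, 60 columns of a 270-column table. The other 210 columns match no sample and were not used. The submitters' processing notes name FastQC 0.11.9, Trim Galore 0.6.5, STAR 2.7.3a, RSEM 1.3.3 and hg38, and the labels' protocols name a directional kit and paired reads of 100 bases. Whether strand was used in counting is not given in the sources used here. Expected counts, of which 76.1% of those above 0 were whole within 1e-06, were rounded to whole numbers.

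Exon lengths and coordinates of all 35 members came from GENCODE v29 on hg38, and symbols from a separate reference of gene names. Promoter sequences came from RefSeq on GRCh38.p14, matched for 30 members. Counts were scaled by TMM (factors 0.926 to 1.03) and filtered with filterByExpr (minimum count 10, minimum total 15), which left 16093 genes. CHAC1 and FGF21 of the ATF4 targets did not pass. The 60 libraries were fitted as 20 groups with edgeR 4.0.16, under R 4.3.3 and with limma 3.58.1, which left 40 residual degrees of freedom. The quasi-likelihood test was applied to 22 comparisons and to 1 joint test of the 6 dose contrasts, with Benjamini-Hochberg adjustment over all 16093 genes of each. In a linear contrast on log dose, 100 µg/mL has no weight, so that contrast is 500 over 20 µg/mL. CPM values use TMM-scaled totals, marker sums use unscaled totals, and fold changes use a prior count of 0.125. The test was checked on simulated data. Totals of 20.9 M to 33.4 M counts per library set the counting precision, and spread among libraries enters through the fit.

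The members and lists were chosen with earlier results of these data known. Members named were the largest rises and falls among those called (up to 6 of each for wortmannin and between doses, up to 4 elsewhere), and AARS1, IARS2, KARS1, LARS1, MARS1, SARS1, SARS2 and WARS1 in every comparison. For other lists they were up to 4 of each, and ATF4, ASNS, TRIB3 and MYC. The members set side by side for the phenylalanine subunits, the histidine pair, the promoter letters, shared rises and single lost calls were named outside that rule, after their values were seen.

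Alternatives were DESeq2 1.42.0 size factors, the DESeq2 test, a mean of at least 1 CPM, no filter, a regression on log dose, a fit of only the groups compared, the replicate number as a block, leaving out each library in turn, and medians without GARS1 and KARS1. The labels tie no replicate number to a shared culture or day. Deviations from group means were correlated between same-numbered libraries over 9327 genes. All 3 correlations were above 0.1 in 4 of 22 comparisons: peony 500 over 20 µg/mL, peony 20 µg/mL over vehicle, Poria over Atractylodes and licorice over ginseng.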

Additional observations from a re-analysis of the deposited data

Results flagged for a closer look

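The 6 extracts gave different changes at 500 over 20 µg/mL for 20 members in the joint edgeR test. Each adjusted p below is over the 16093 genes tested, of which 35.1% passed, and the cause of the differences was not tested. Among cytosolic genes the adjusted p was 1.3e-13 for HARS1, 2.56e-08 for VARS1, 9.35e-08 for YARS1, 3.28e-06 for GARS1, 3.9e-05 for FARSA, 0.000115 for FARSB and 0.000185 for MARS1. It was 0.000212 for AARS1, 0.000291 for RARS1, 0.00181 for KARS1, 0.00194 for CARS1, 0.00233 for WARS1, 0.00751 for NARS1 and 0.00855 for TARS1. Among mitochondrial genes it was 4.78e-07 for MARS2, 0.0002 for LARS2, 0.00074 for YARS2, 0.00197 for CARS2, 0.00641 for WARS2 and 0.0447 for RARS2. Groups of 3 libraries were too small for a search for single libraries that stand apart.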

How the results depend on the processing

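Of 147 calls of named members, 88 were made under every alternative run for them, 59 were lost under at least 1, and 0 changed sign. No filter on low counts lost 38 of the 147, a fit of only the groups compared 30, the 1 CPM filter 5, the DESeq2 test 4 and DESeq2 size factors 1, and the regression on log dose, run for 30 of them, lost 9. A fit of only the groups compared has fewer libraries behind its spread; for the other losses the cause was not tested. Counts of members called moved by more than 1.5 times as follows. Between doses, angelica went to 0 with no filter, 0 in the fit of the groups compared, 0 with the regression and 2 in DESeq2, against 1, and peony to 3 with no filter, 3 with the regression and 8 in DESeq2, against 5. At 500 µg/mL over vehicle, Atractylodes had 1 in DESeq2, against 0. There, with no filter and with only the groups compared, ginseng had 1 and 1, against 6, and angelica 6 and 8, against 13. At 20 µg/mL over vehicle the same alternatives gave 0 and 0 for Poria, against 2, 6 and 4 for licorice, against 12, 7 and 3 for angelica, against 11, and 6 and 4 for peony, against 11. For ginseng no filter gave 2, against 8.

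Leaving out 1 library in turn gave 15 to 20 calls with wortmannin. Between doses it gave 18 to 19 with Poria, 11 to 13 with licorice, 5 to 6 with peony, 0 to 1 with angelica, and 0 with Atractylodes and ginseng. At 500 µg/mL over vehicle it gave 19 to 23 with Poria, 0 to 1 with Atractylodes, 21 to 23 with licorice, 1 to 4 with ginseng, 7 to 12 with angelica and 10 to 13 with peony. At 20 µg/mL over vehicle it gave 0 to 3 with Poria, 0 with Atractylodes, 4 to 12 with licorice, 1 to 6 with ginseng, 4 to 9 with angelica and 4 to 11 with peony. Between extracts it gave 19 to 22 for Poria over Atractylodes, 14 to 17 for licorice over ginseng and 9 to 12 for angelica over peony, and 18 to 20 in the joint test.

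With all libraries kept, medians moved beyond the spread between replicates in 6 cases. DESeq2 size factors gave -0.12 for mitochondrial genes with wortmannin, against -0.11, and 0.029 for cytosolic genes with angelica at 20 µg/mL over vehicle, against 0.033. Without GARS1 and KARS1 the cytosolic median was 0.018 with angelica at 20 µg/mL over vehicle, 0.203 with Poria and 0.227 with licorice at 500 µg/mL over vehicle (against 0.217 and 0.242), and 0.130 for Poria over Atractylodes, against 0.146. With the replicate number as a block, 20 members were called with wortmannin, 20 with Poria, 15 with licorice and 6 with peony between doses, and 0 named calls were lost. LARS1 passed with peony at 500 µg/mL over vehicle (adjusted p = 0.0444), and among named members the block otherwise changed only the calls of WARS1 and AARS1 given with peony and with licorice over ginseng. Each library correlated best with its own number in 3 of 22 comparisons. Counts for the other gene lists were recomputed under the same alternatives, a step chosen after seeing the data. At this depth and with 3 libraries a group, the smallest change of a member that was called was 0.08 in log2, that of QARS1 with wortmannin. QARS1 had at least 4813 counts in each library, and 7456 genes were called in that comparison. The value is no limit for rarer members or for comparisons with fewer calls. YARS2, at -0.16 with peony at 500 over 20 µg/mL, was not called.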
